A study of Xenopus laevis with 20 samples.

Results

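Keratins, the proteins of desmosomes and the proteins of tight junctions form the filaments and the contacts that hold an epithelium together, and their transcripts were followed in ectoderm of the frog Xenopus laevis carrying active Pax3, active Zic1, both or neither. The genes were taken by symbol, as those that begin with krt, dsp, dsg, dsc plus a digit, pkp, cldn, ocln, tjp, evpl, ppl or jup, with dscc1 left out. Of 64 such symbols on the array, 39 had a probe set at log2 4 or more, the level taken as background, on at least 5 of the 20 arrays. The probe set with the highest mean stood for each symbol. These are 39 of 8397 symbols that passed the same filter. They comprised 14 of 29 keratins, 11 of 12 desmosome and plakin genes and 11 of 20 tight junction genes. The other 3, cldnd1.L, krtcap2.L and krtcap3.L, share only the spelling and are described apart. Symbols end in .L or .S after the long and short copies (homeologs) that the duplicated genome of X. laevis keeps of many genes.

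Each sample was 1 animal cap, the prospective ectoderm of the blastula, cut at stage 9 from an embryo injected with mRNA at the 2-cell stage and then kept for 8 h in dexamethasone. The 4 groups of 5 explants were injected with Pax3GR, with Zic1GR, with both messages (the combination) or, for the controls, with GR by itself. GR is the glucocorticoid receptor, whose hormone-binding part keeps a fused transcription factor inactive until dexamethasone is added, so all 4 groups carried a GR message and the hormone. Total RNA of each explant, 100 ng, was amplified and hybridised to an Affymetrix Xenopus array, and the dose of message is not given in the sources used here. Values are log2 intensities as deposited, and means are given ± SD over n = 5 explants. The labels call the explants biological replicates and do not say which shared a clutch, so a p-value measures the spread between these explants.

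A keratin filament is built from a type I and a type II keratin. Desmoplakin, plakoglobin and the plakophilins anchor these filaments to desmosomes, which rivet neighbouring cells, while claudins and occludin seal the gap between cells at tight junctions, on scaffolds of the ZO family. In the frog blastula the superficial ectoderm is already an epithelium with tight junctions, and untreated caps go on to form epidermis. Pax3 and Zic1 are transcription factors of the neural plate border, and together they are known for inducing neural crest, a population that later leaves its epithelium.

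An array had at least 18949 and at most 19239 of 32539 probe sets at log2 4 or more. For pax3.S, Xl2.49495.3.S1_x_at averaged 13.27 with Pax3GR, 10.01 with Zic1GR, 12.92 with the combination and 2.36 with GR. For zic1.S, Xl2.1796.1.S2_at averaged 13.98, 12.56, 13.78 and 7.69 in the same order. Both were thus higher than with GR in every injected group. Of 5 probe sets annotated pax3.L, Xl2.45266.1.S2_at was higher likewise, with 12.93, 11.50, 12.93 and 2.22, as was Xl2Affx.25.1.S1_at, and the other 3 were not, such as Xl2.45055.1.S1_at with 14.14, 13.61, 13.91 and 14.002. Which of them detect the injected messages is not given in the labels. Replicates varied within each injection: the array least correlated with its own group had a mean correlation of 0.881 for Pax3GR replicate 1, 0.925 for Zic1GR replicate 5, 0.922 for combination replicate 4 and 0.963 for GR replicate 3. The main counts of genes called are also given without these arrays together. Which genes then gain or lose a call is mostly not given, and family counts without them are not given. Of defining markers of other germ layers, tbxt.L (mesoderm) and sox17a.L and sox17a.S (endoderm) stayed below log2 4 on all 20 arrays. Others did not: tbxt.S reached log2 4 on 5 arrays, all of injected explants, and the endoderm gene gata5.S averaged 2.28, 4.62 and 2.51 in the injected groups, against 7.33 with GR. Of 8 copies on the list of mesoderm and muscle genes 5 rose in each injected group, and the list's mean lay at 6.05 to 6.98, 6.24 to 7.42 and 5.20 to 6.95, against 2.96 to 3.20 with GR. With the GR mean of this list below background, the filter favoured copies that were higher in injected explants. Its rises and means are therefore given as a description only. Of 7 copies on the endoderm list 0, 1 and 2 rose and 4, 3 and 3 fell, with means of 5.17 to 6.02, 5.31 to 6.63 and 6.38 to 7.35, against 6.94 to 7.72 with GR. The part of these cells in the results was not tested. Over all probe sets 27.3%, 28.6% and 24.6% rose and 23%, 22.8% and 20.3% fell with Pax3GR, Zic1GR and the combination.

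Against GR, the desmosome and plakin genes that changed were lower in all 3 injected groups, the keratins that changed were mostly lower with Pax3GR, and the tight junction genes split between higher and lower. With Zic1GR and the combination, rises and falls were equal in number among the 11 keratins above background on all arrays. That count leaves out krt12.2.L, krt17.L and krt18.3.L, which fell in both groups. By limma with Benjamini-Hochberg adjusted p under 0.05 over 20519 probe sets, 6 of the 39 genes rose and 22 fell with Pax3GR. Of all probe sets 50.3% were called in that comparison, 27.3% higher and 23% lower. With Zic1GR 5 rose and 16 fell, where 51.4% of all probe sets were called, 28.6% higher and 22.8% lower. With the combination 4 rose and 13 fell, against 44.8% of all probe sets called, 24.6% higher and 20.3% lower. The share of the 39 genes called, 71.8%, 53.8% and 43.6% in that order, was thus above the background with Pax3GR and close to it in the others, and in all 3 the calls leaned to lower where those of all probe sets leaned to higher. The median difference of the 39 genes was -0.50 with Pax3GR, -0.33 with Zic1GR and -0.47 with the combination, beside 0.095, 0.087 and 0.079 over all probe sets. The 3 comparisons share the GR arrays. In bulk RNA, fewer cells of a type and less RNA per cell cannot be told apart.

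Among the 39, krt17.L passed the filter through the 5 GR arrays alone, so that its place among the falls and among the groups without overlap was fixed by that choice. Outside GR krt12.2.L reached log2 4 on fewer than 5 arrays, as did tjp1.S outside Pax3GR. The filter thus favoured falls of krt12.2.L against GR and a higher level of tjp1.S with Pax3GR. Because krt17.L and 3 other genes (krt12.2.L, krt18.3.L and tjp1.S) lay below background on some arrays, the counts were also taken over the 35 genes at log2 4 or more on all 20 arrays. Of these, 6 rose and 19 fell with Pax3GR, 5 rose and 13 fell with Zic1GR, and 4 rose and 10 fell with the combination. Counted by overlap alone, all 5 injected explants lay below all 5 GR explants for 19 of the 39 genes with Pax3GR, 18 with Zic1GR and 18 with the combination, beside 17.6%, 19.1% and 17.4% of all probe sets. All 5 lay above for 4 genes in each comparison, beside 21.2%, 21.6% and 19% of all probe sets. Each test was also repeated 20 times with 1 array left out, and a range of adjusted p beside a gene is the range over those fits. The limma tests took 1 spread per gene from all 4 groups together. Leaving out an array of 1 group can therefore change a comparison of others. In fits of only the 2 groups compared, 26, 27 and 19 of the 39 genes were called with Pax3GR, Zic1GR and the combination. Without the least correlated array of each group together, of 38 genes still tested 28 were called with Pax3GR, 25 with Zic1GR and 14 with the combination. The shares of all probe sets called without these arrays are not given. The plot of differences from GR shows each gene with its interval.

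**Figure D1:**
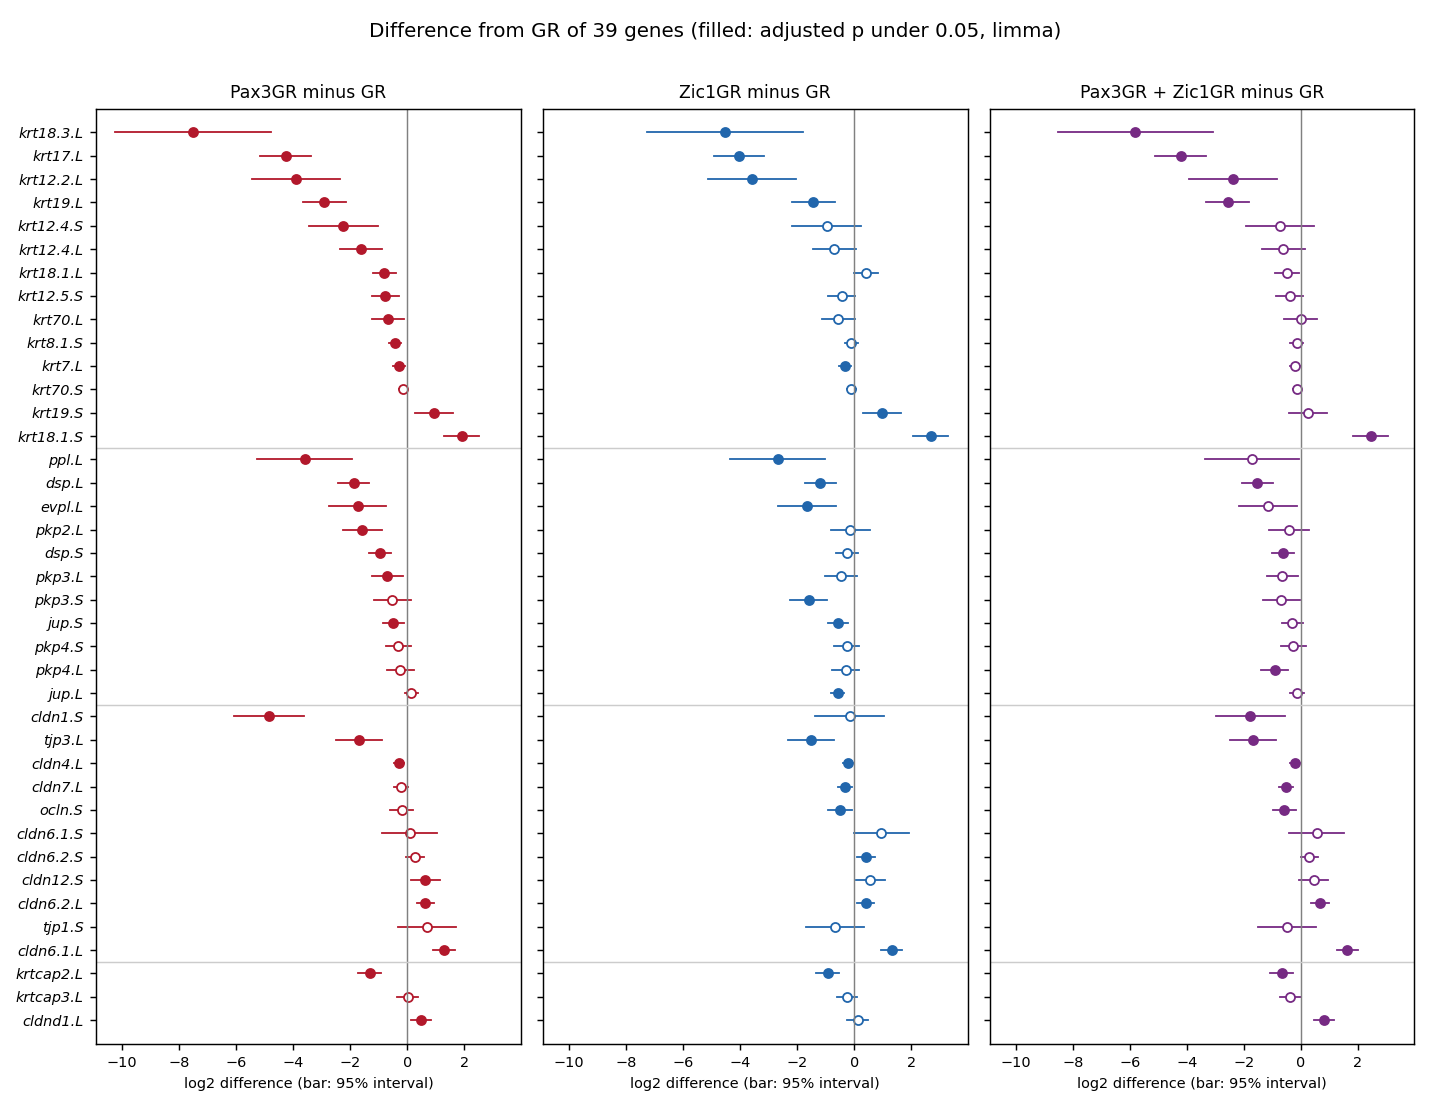
The log2 difference from GR (horizontal axis, log2 units, with its 95% interval as a bar) is plotted for each of the 39 genes in Pax3GR, Zic1GR and combination explants (panels from left to right). Filled points passed an adjusted p of 0.05, and within each family genes run by their difference with Pax3GR, so that krt18.3.L at -7.51, -4.54 and -5.80 stands on top and the rises of krt18.1.S and cldn6.1.L stand at the foot of their families.

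Most of the measured keratins fell with Pax3GR. Those that fell with Zic1GR or the combination were mostly genes that lay below background in some injected explants. Among these krt18.3.L was bright with GR, at 11.95 to 12.60, and was above background in all Zic1GR explants. With Pax3GR 2 of 14 rose and 11 fell, with Zic1GR 2 rose and 5 fell, and with the combination 1 rose and 4 fell. The shares called were 92.9%, 50% and 35.7%, beside 50.3%, 51.4% and 44.8% of all probe sets. With Zic1GR the share was thus near that of all probe sets, and with the combination it was below it. Of all probe sets 27.3%, 28.6% and 24.6% were called higher and 23%, 22.8% and 20.3% lower. Over the 11 keratins at log2 4 or more on all arrays the counts were 2 and 8, 2 and 2, and 1 and 1, or 90.9%, 36.4% and 18.2% called. Those counts leave out krt12.2.L, krt17.L and krt18.3.L, which fell to background in some or all injected explants. All injected explants lay below all GR explants for 9, 8 and 8 of the 14 keratins and for 6, 5 and 6 of the 11. The shares of all probe sets were 17.6%, 19.1% and 17.4%. The median difference was -0.79, -0.50 and -0.44. Of the 14, krt18.3.L and krt19.L fell in all 3 groups and krt18.1.S rose in all 3. The genes krt17.L, whose fall the filter fixed, and krt12.2.L, whose fall it favoured, were lower in all 3.

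The gene krt18.3.L (Xl2.55480.1.S1_at) encodes a relative of keratin 18, the type I keratin of simple epithelia. Its log2 values were 8.90, 7.24, 2.93, 2.57 and 2.81 with Pax3GR, 5.09, 6.87, 9.66, 8.32 and 9.38 with Zic1GR, 5.23, 7.31, 8.42, 3.003 and 9.02 with the combination and 12.60, 12.49, 11.95, 12.52 and 12.43 with GR. All 15 injected explants lay below all 5 GR explants, but they were scattered over a wide range, with 3 of 5 Pax3GR explants and combination replicate 4 below background. It fell by 7.51 with Pax3GR (SE 1.30, limma adjusted p = 0.000125), by 4.54 with Zic1GR (adjusted p = 0.00791) and by 5.80 with the combination (adjusted p = 0.00161), each with the same SE. With values below log2 4 set to 4, the difference was -6.77 with Pax3GR (7.04e-05) and -5.60 with the combination (0.000558).

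The type I keratin krt17.L (Xl2.49520.1.S1_at), whose mammalian counterpart belongs to basal cells and skin appendages, had values of 2.00, 1.97, 2.00, 1.96 and 1.95 with Pax3GR, 1.99, 2.03, 2.96, 2.01 and 2.08 with Zic1GR, 2.03, 2.02, 2.03, 2.00 and 2.05 with the combination and 5.42, 7.75, 7.62, 5.35 and 5.10 with GR. Only the GR explants were above background, at 6.25 ± 1.32, and every injected explant was below it. It was at least 4.75-fold lower in each injected group, given as a description with no test, because the gene was taken in through its GR values alone.

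Another type I keratin, krt12.2.L (Xl2.15435.1.S1_at), had 2.78, 2.72, 2.55, 2.47 and 2.46 with Pax3GR, 2.48, 2.54, 2.49, 2.60 and 4.43 with Zic1GR, 2.58, 2.77, 5.68, 2.54 and 7.04 with the combination and 5.84, 7.66, 6.85, 5.61 and 6.55 with GR. Pax3GR explants were all below background, as were all Zic1GR explants but replicate 5, and combination replicates 3 and 5 reached into the range of GR. It was at least 5.66-fold lower with Pax3GR. With Zic1GR, where 1 of 5 explants measured it, it was lower by 3.59, or by 2.42 with values below log2 4 set to 4. With the combination, where 2 of 5 measured it, it was lower by 2.38, or by 1.56 with low values set to 4. Its place among the falls with the combination was lost without the least correlated array of each group and in a fit of those 2 groups alone. Because krt12.2.L needed its GR values to pass the filter, these differences are given as a description with no test.

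The type I keratin krt19.L (Xl2.55001.1.A1_s_at), in mammals a partner of keratin 8 in simple epithelia, had 11.96, 10.94, 10.87, 10.82 and 10.65 with Pax3GR, 11.91, 12.64, 12.94, 12.73 and 12.40 with Zic1GR, 11.01, 11.30, 11.07, 11.40 and 12.16 with the combination and 14.20, 14.17, 12.42, 14.35 and 14.63 with GR. Pax3GR and combination explants lay below all GR explants, while Zic1GR explants overlapped GR replicate 3, the lowest of its group by a wide gap. It fell by 2.91 (SE 0.36, adjusted p = 3.92e-06) with Pax3GR, by 1.43 (0.00339) with Zic1GR and by 2.57 (2.15e-05) with the combination. This probe set ends in s_at, the array's mark for probes shared between transcripts.

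The largest rise was that of krt18.1.S (Xl2.8910.1.S1_at), the short copy of keratin 18, with 13.02, 12.58, 12.65, 12.20 and 12.23 with Pax3GR, 13.40, 13.71, 13.31, 13.43 and 12.71 with Zic1GR, 13.06, 12.74, 13.38, 12.97 and 13.22 with the combination and 10.73, 10.65, 11.51, 9.38 and 10.86 with GR. All 15 injected explants lay above all 5 GR explants, and GR replicate 4 was the lowest of all. It rose by 1.91 with Pax3GR (SE 0.29, limma adjusted p = 3.66e-05), 2.69 with Zic1GR (1.25e-06) and 2.45 with the combination (3.46e-06). The long copy krt18.1.L (Xl2.6874.1.S1_a_at) had 13.82, 13.59, 13.02, 13.08 and 13.20 with Pax3GR, 14.57, 14.71, 14.60, 14.57 and 14.36 with Zic1GR, 13.95, 13.70, 13.38, 12.99 and 14.25 with the combination and 14.16, 14.02, 14.06, 14.19 and 14.29 with GR. There Pax3GR explants lay below all GR explants, Zic1GR explants above all of them, and 4 combination explants below them, with replicate 5 inside the GR range. It fell by 0.80 with Pax3GR (adjusted p = 0.00241), while the difference was 0.42 with Zic1GR (0.0834) and -0.49 with the combination (0.0512), both not called. Leaving out combination replicate 4 brought the Zic1GR difference to an adjusted p of 0.0445, within a range of 0.0445 to 0.153 over 20 such fits. The combination's difference was called in 3 of 20 such fits (adjusted p 0.00993 to 0.157), those without Pax3GR replicate 1 or combination replicate 1 or 5.

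Keratins of the frog's embryonic epidermis were close to the top of the scale in GR and fell with Pax3GR, by amounts that differed widely between explants. The short copy krt12.4.S (Xl2.2924.1.S1_at) had 14.69, 14.42, 11.69, 11.73 and 11.22 with Pax3GR, 13.35, 13.42, 14.56, 14.07 and 14.72 with Zic1GR, 14.27, 14.44, 14.65, 13.18 and 14.75 with the combination and 14.88, 15.09, 15.03, 15.03 and 14.92 with GR. Pax3GR replicates 1 and 2 stood near GR while replicates 3 to 5 were several log2 units lower, and every explant of the 3 injections lay below every GR explant. It fell by 2.24 with Pax3GR (SE 0.57, adjusted p = 0.00329). The differences of -0.96 with Zic1GR (0.167) and -0.73 with the combination (0.31) did not pass.

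The long copy krt12.4.L (Xl2.21983.1.S1_at) showed the same split, with 14.73, 14.30, 12.87, 12.65 and 12.62 with Pax3GR, 14.02, 13.92, 14.75, 14.28 and 14.84 with Zic1GR, 14.56, 14.44, 14.62, 13.78 and 14.78 with the combination and 15.01, 15.07, 15.10, 15.06 and 15.02 with GR. Again all injected explants were below all GR explants, and Pax3GR replicates 3 to 5 were the lowest. It fell by 1.62 with Pax3GR (adjusted p = 0.000977), and differed by -0.69 with Zic1GR (0.11, or 0.0494 without Pax3GR replicate 1, in a range of 0.0494 to 0.22) and by -0.62 with the combination (0.167). The gene krt12.5.S, which lies beside krt12.4.S, averaged 14.04 ± 0.57, 14.38 ± 0.25 and 14.43 ± 0.39 with Pax3GR, Zic1GR and the combination, against 14.82 ± 0.037 with GR. It fell with Pax3GR by 0.77 (adjusted p = 0.00875).

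The keratins that follow lay near the top of the scale too. The embryonic epidermal keratin krt70.S (Xl2.6133.1.S1_a_at) had 15.04, 14.96, 14.88, 14.87 and 14.79 with Pax3GR, 14.95, 14.98, 15.03, 14.91 and 14.92 with Zic1GR, 14.98, 14.90, 14.91, 14.80 and 15.00 with the combination and 15.02, 15.08, 15.09, 15.03 and 15.09 with GR. All values lay within fractions of a log2 unit, and only the combination group did not overlap GR. No comparison was called (adjusted p = 0.0802 with Pax3GR, 0.24 with Zic1GR and 0.113 with the combination). Without Pax3GR replicate 1 the first of these was 0.0353, in a range of 0.0353 to 0.183 over 20 fits. Its long copy krt70.L averaged 14.11 ± 0.80 with Pax3GR, 14.23 ± 0.28 with Zic1GR, 14.77 ± 0.19 with the combination and 14.78 ± 0.052 with GR. It passed only with Pax3GR (difference -0.68, adjusted p = 0.0446), a call kept in 6 of 20 fits without 1 array (0.00744 to 0.141).

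A pair of type II keratins of simple epithelia close the family. For krt7.L (Xl2.1642.2.S1_a_at) the values were 14.70, 14.55, 14.38, 14.35 and 14.33 with Pax3GR, 14.24, 14.37, 14.56, 14.34 and 14.62 with Zic1GR, 14.62, 14.58, 14.60, 14.31 and 14.68 with the combination and 14.76, 14.73, 14.78, 14.72 and 14.75 with GR. Every injected explant lay below every GR explant, by small margins. It fell by 0.29 with Pax3GR (adjusted p = 0.0209, range 0.00589 to 0.0552, not called without Pax3GR replicate 4 or 5) and by 0.32 with Zic1GR (adjusted p = 0.0114), and differed by -0.19 with the combination (0.121). Its 4 other probe sets did not all go the same way: Xl2.1642.1.S1_at rose by 0.37 with Zic1GR (adjusted p = 0.00188), while the other 3 fell with both Pax3GR and Zic1GR, and further than the brightest, by 1.15, 1.07 and 0.78 with Pax3GR and by 1.26, 0.75 and 0.53 with Zic1GR. Of these 3, Xl2.1642.6.A1_a_at and Xl2.45542.2.S1_at also fell with the combination, by 1.08 (0.00496) and 0.68 (0.0214). Xl2.45542.2.S1_at and Xl2.45542.2.A1_s_at are annotated krt7.L but share the start of their names with Xl2.45542.1.S1_at, which stands for krt8.1.S. Which keratin they detect was not tested.

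For krt8.1.S (Xl2.45542.1.S1_at), keratin 8, the partner of keratin 18 and the immediate neighbour of krt18.1.S on its chromosome, the values were 14.31, 14.01, 13.80, 13.79 and 13.81 with Pax3GR, 14.24, 14.29, 14.35, 14.24 and 14.31 with Zic1GR, 14.23, 14.21, 14.30, 14.001 and 14.43 with the combination and 14.33, 14.37, 14.51, 14.25 and 14.43 with GR. Pax3GR replicates 3 to 5 were the lowest of all, and each injected group overlapped GR. It fell by 0.44 with Pax3GR (adjusted p = 0.0022), and the differences of -0.093 with Zic1GR (0.481) and -0.15 with the combination (0.272) did not pass. The neighbours krt8.1.S and krt18.1.S, with no protein-coding gene between them in RefSeq's table for Xenopus_laevis_v10.1, thus moved in opposite directions with Pax3GR. Of the 39 genes 10, 8 of them keratins, averaged log2 14 or more with GR, where the highest value on any array was 15.39. How far the top of the scale compresses their differences was not tested.

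**Figure D2:**
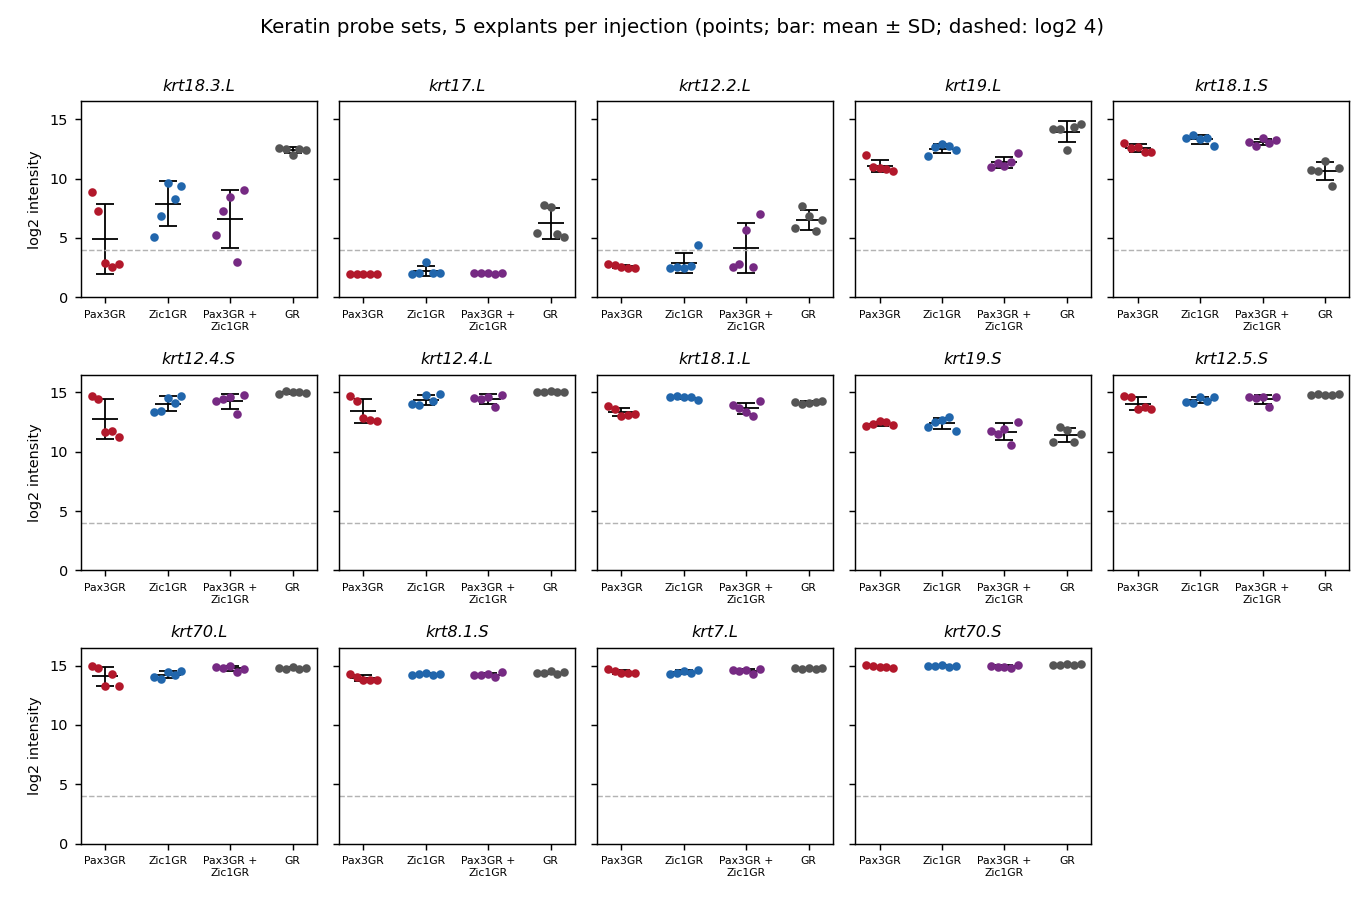
The log2 intensity (vertical axis) of each of the 14 keratins is shown for every explant (points) in Pax3GR, Zic1GR, combination and GR groups (left to right), with the group mean ± SD as a bar and log2 4 as a dashed line. In krt12.4.S the 5 Pax3GR points run between 11.22 and 14.69 while the GR points lie between 14.88 and 15.09, and in krt18.1.S all injected points lie above the GR points.

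Of the 11 desmosome and plakin genes none rose, and 7 fell with Pax3GR, 6 with Zic1GR and 3 with the combination. The falls were 63.6%, 54.5% and 27.3% of the 11, beside 23%, 22.8% and 20.3% of all probe sets called lower. The share with the combination was thus near that of all probe sets. Of all probe sets 27.3%, 28.6% and 24.6% were called higher. All 11 were above background on every array. The median difference was -0.71 with Pax3GR, -0.57 with Zic1GR and -0.65 with the combination. The count with the combination is small beside its overlap: for 6 of the 11 genes all combination explants lay below all GR explants, as for 6 with Zic1GR and 5 with Pax3GR. The same held for 17.4%, 19.1% and 17.6% of all probe sets in that order.

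Periplakin and envoplakin are plakins that in mammals help build the cornified envelope beneath the membrane. Periplakin, ppl.L (Xl2.15894.1.S1_a_at), had 12.06, 11.06, 8.19, 8.29 and 7.74 with Pax3GR, 9.21, 9.23, 11.45, 10.12 and 11.92 with Zic1GR, 11.78, 11.63, 12.16, 9.25 and 11.92 with the combination and 13.00, 12.96, 13.47, 12.94 and 12.94 with GR. All injected explants lay below GR, with Pax3GR replicates 3 to 5, Zic1GR replicates 1 and 2 and combination replicate 4 far below the rest of their groups. It fell by 3.60 with Pax3GR (SE 0.79, adjusted p = 0.00103) and by 2.68 with Zic1GR (0.00942). With the combination it differed by -1.72 (0.0861, or 0.0458 without Pax3GR replicate 1, in a range of 0.0458 to 0.234 over 20 fits). The 3 other probe sets of ppl.L gave -4.10, -4.79 and -5.07 with Pax3GR, and like the first all were called with Pax3GR and Zic1GR and none with the combination.

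Envoplakin, evpl.L (Xl2.1605.2.S1_at), had 12.62, 12.02, 10.36, 10.28 and 9.75 with Pax3GR, 10.57, 10.56, 11.90, 10.70 and 11.76 with Zic1GR, 11.95, 11.90, 11.92, 10.33 and 11.90 with the combination and 12.76, 12.75, 12.91, 12.64 and 12.70 with GR. As for periplakin, every injected explant lay below every GR explant, and combination replicate 4 stood more than 1 log2 unit below the other 4 of its group. It fell by 1.75 with Pax3GR (SE 0.48, adjusted p = 0.00563) and by 1.66 with Zic1GR (0.00853), and differed by -1.15 with the combination (0.059, or 0.0271 at the lowest of 0.0271 to 0.169 over 20 fits, passing without Pax3GR replicate 1 or 5).

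Desmoplakin links keratin filaments to the desmosome, and both of its copies were measured. The long copy dsp.L (Xl2.46687.1.S1_at) had 11.36, 11.01, 10.63, 10.47 and 10.44 with Pax3GR, 11.35, 11.39, 11.70, 10.89 and 12.03 with Zic1GR, 11.47, 11.32, 10.61, 10.40 and 11.86 with the combination and 12.75, 12.67, 12.72, 12.52 and 12.64 with GR. The injected and GR explants did not overlap. It fell by 1.88 with Pax3GR (SE 0.26, adjusted p = 1.34e-05), 1.19 with Zic1GR (0.00117) and 1.53 with the combination (0.000152). The short copy dsp.S (Xl2.22252.1.S1_at) had 12.15, 11.70, 11.26, 11.06 and 11.23 with Pax3GR, 11.99, 12.34, 12.38, 11.93 and 12.22 with Zic1GR, 12.02, 11.77, 11.86, 11.33 and 12.09 with the combination and 12.48, 12.28, 12.55, 12.36 and 12.46 with GR. Pax3GR and combination explants lay below all GR explants, and Zic1GR explants overlapped them. It fell by 0.95 with Pax3GR (0.000364) and by 0.61 with the combination (0.0118), with a difference of -0.25 with Zic1GR (0.261).

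Plakoglobin, which binds desmosomal cadherins and also serves in adherens junctions, differed from GR by less than 1 log2 unit on average. The long copy jup.L (Xl2.21696.1.S1_at) had 13.52, 13.40, 13.52, 13.50 and 13.47 with Pax3GR, 12.60, 12.50, 13.07, 12.69 and 12.95 with Zic1GR, 13.34, 13.42, 12.90, 13.24 and 13.14 with the combination and 13.41, 13.31, 13.32, 13.38 and 13.30 with GR. The Zic1GR explants were the lowest and lay below all GR explants, whereas Pax3GR explants lay at the top of the GR range or just above it, and combination explants overlapped GR. It fell by 0.58 with Zic1GR (SE 0.11, adjusted p = 0.000443) and differed by 0.14 with Pax3GR (0.329) and -0.13 with the combination (0.35). The short copy jup.S (Xl2.2844.1.S1_at) had 13.68, 13.36, 12.90, 12.91 and 12.61 with Pax3GR, 12.83, 12.86, 13.22, 12.98 and 13.21 with Zic1GR, 13.47, 13.24, 13.47, 12.81 and 13.41 with the combination and 13.61, 13.60, 13.60, 13.58 and 13.55 with GR. Pax3GR replicate 1 was above GR and the other 14 injected explants below it. It fell by 0.50 with Pax3GR (adjusted p = 0.0237, range 0.002 to 0.076, not called without Pax3GR replicate 3, 4 or 5) and by 0.57 with Zic1GR (0.0112), and differed by -0.31 with the combination (0.158).

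The plakophilins are plaque proteins that cluster desmosomal cadherins. For pkp3.S (Xl2.48035.1.A1_x_at) the values were 13.48, 12.96, 12.77, 12.97 and 13.05 with Pax3GR, 11.39, 11.27, 12.44, 11.80 and 13.03 with Zic1GR, 12.96, 12.38, 13.45, 12.11 and 13.46 with the combination and 13.67, 13.53, 13.68, 13.42 and 13.56 with GR. Zic1GR explants lay below all GR explants, most of all replicates 1 and 2, and explants of the other injections reached up to the GR range. It fell by 1.59 with Zic1GR (SE 0.31, adjusted p = 0.000438), and differed by -0.53 with Pax3GR (0.167) and -0.70 with the combination (0.0745, called in 3 of 20 fits without 1 array, at 0.0367 to 0.201, those without Zic1GR replicate 5 or combination replicate 3 or 5). This probe set ends in x_at, the array's mark for probes that can cross-hybridise. Another, Xl2.2208.1.S1_at, fell with the combination by 1.14 (0.023).

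Its long copy pkp3.L (Xl2.2695.1.S1_at) had 10.88, 9.74, 9.44, 9.40 and 9.57 with Pax3GR, 9.82, 9.58, 10.06, 10.0003 and 10.78 with Zic1GR, 9.94, 9.92, 10.31, 9.35 and 9.80 with the combination and 10.50, 10.42, 10.68, 10.59 and 10.37 with GR. Pax3GR replicate 1 and Zic1GR replicate 5 stood above all GR explants and the other injected explants below them. It fell by 0.71 with Pax3GR (adjusted p = 0.0311), a call kept in 14 of 20 fits without 1 array (0.000712 to 0.0811) and lost without Pax3GR replicate 2, 3, 4 or 5 or GR replicate 3 or 4. It differed by -0.46 with Zic1GR (0.145, or 0.0378 without Zic1GR replicate 5, in a range of 0.0378 to 0.31) and by -0.65 with the combination (0.0518, called in 4 of 20 fits, 0.011 to 0.137, those without Pax3GR replicate 1, Zic1GR replicate 2 or 5 or combination replicate 3).

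Plakophilin 2, pkp2.L (Xl2.4420.1.S1_at), had 12.01, 12.11, 11.25, 10.36 and 10.85 with Pax3GR, 12.63, 12.89, 13.38, 12.67 and 12.25 with Zic1GR, 12.94, 12.68, 12.01, 11.91 and 12.86 with the combination and 12.63, 13.26, 12.32, 12.98 and 13.30 with GR. Only Pax3GR explants lay below all GR explants, and Zic1GR and combination explants mixed with GR. It fell by 1.58 with Pax3GR (SE 0.33, adjusted p = 0.000641), beside -0.13 with Zic1GR (0.76) and -0.42 with the combination (0.313).

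Plakophilin 4, which sits in adherens junctions as well as desmosomes, was measured in both copies. The long copy pkp4.L (Xl2.23643.1.S1_at) had 11.63, 11.58, 11.55, 12.14 and 12.17 with Pax3GR, 11.56, 12.00, 12.06, 11.61 and 11.60 with Zic1GR, 11.55, 11.69, 10.70, 10.74 and 11.03 with the combination and 12.45, 12.24, 12.14, 11.36 and 12.12 with GR. Combination replicates 3 to 5 were the lowest, and GR replicate 4 lay below all Pax3GR and Zic1GR explants. It fell with the combination by 0.92 (adjusted p = 0.00352), and differed by -0.25 with Pax3GR (0.383) and -0.30 with Zic1GR (0.29). The short copy pkp4.S averaged 8.06 ± 0.44, 8.13 ± 0.13 and 8.12 ± 0.078 with Pax3GR, Zic1GR and the combination, against 8.39 ± 0.48 with GR, and was called in none of the 3 comparisons by limma (adjusted p = 0.209, 0.323 and 0.32).

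**Figure D3:**
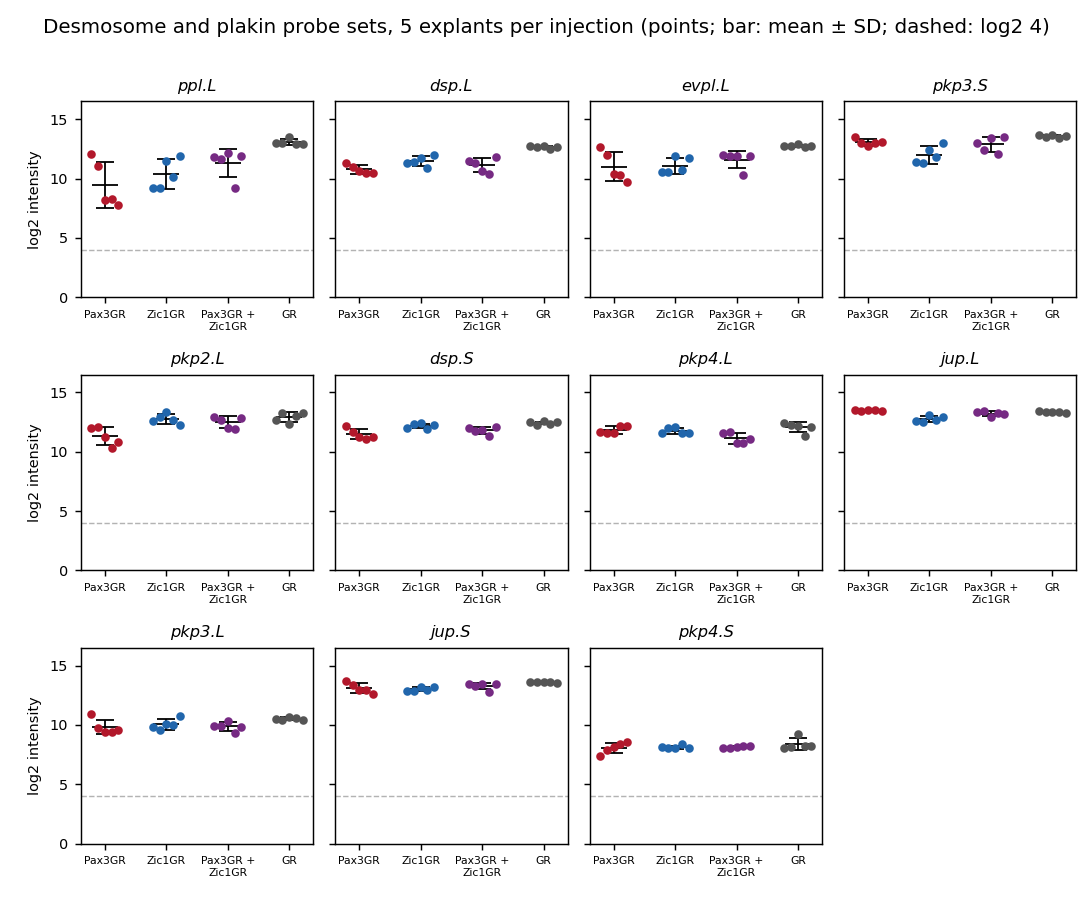
The log2 intensity (vertical axis) of each of the 11 desmosome and plakin genes is shown for every explant (points) in Pax3GR, Zic1GR, combination and GR groups (left to right), with the mean ± SD as a bar and log2 4 as a dashed line. In ppl.L the Pax3GR points spread between 7.74 and 12.06 below GR points of 12.94 to 13.47, while in dsp.L the 15 injected points lie between 10.40 and 12.03 and the GR points between 12.52 and 12.75.

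Tight junction genes had no common direction. With Pax3GR 3 of 11 rose and 3 fell, with Zic1GR 3 rose and 4 fell, and with the combination 2 rose and 5 fell, and the median difference was 0.079, -0.15 and -0.22. The shares called were 54.5%, 63.6% and 63.6%, beside 50.3%, 51.4% and 44.8% of all probe sets. Of all probe sets 27.3%, 28.6% and 24.6% were called higher and 23%, 22.8% and 20.3% lower. The counts with Pax3GR were thus near the shares of all probe sets. The claudin 6 genes made up most of the rises, and cldn1.S and tjp3.L the largest falls.

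The largest difference was that of cldn1.S (Xl2.23515.1.S1_at), claudin 1, the barrier claudin of mammalian epidermis, with 10.15, 8.14, 8.40, 7.41 and 6.81 with Pax3GR, 12.78, 13.14, 12.82, 13.01 and 12.71 with Zic1GR, 9.88, 10.10, 11.23, 12.05 and 13.04 with the combination and 13.36, 13.51, 12.56, 12.44 and 13.34 with GR. Pax3GR explants lay far below all Zic1GR and GR explants, Zic1GR explants lay within the GR range, and combination explants ran from near the highest Pax3GR explant up into the GR range. It fell by 4.86 with Pax3GR (SE 0.58, adjusted p = 2.34e-06) and by 1.78 with the combination (0.0183, range 0.00319 to 0.0548, not called without combination replicate 1 or 2), and differed by -0.15 with Zic1GR (0.852). A dimmer probe set of the same symbol, Xl2.16310.1.S1_at, went another way. It fell by 3.56 with Zic1GR (adjusted p = 0.000436) and differed by 1.30 with Pax3GR (0.128) and 0.94 with the combination (0.279). Between the combination and Zic1GR it was higher by 4.50 (0.000175), where the brighter gave -1.63, not called. The direction for cldn1.S therefore depends on which probe set is read.

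The scaffold gene tjp3.L (Xl2.2202.1.S1_s_at), which encodes ZO-3, had 10.34, 9.73, 9.32, 9.17 and 9.41 with Pax3GR, 9.25, 9.46, 9.78, 9.42 and 10.89 with Zic1GR, 9.37, 9.75, 10.57, 8.15 and 10.26 with the combination and 11.56, 11.05, 11.40, 11.08 and 11.36 with GR. All injected explants lay below all GR explants, and combination replicate 4 was the lowest of all. It fell by 1.70 with Pax3GR (SE 0.38, adjusted p = 0.00132), 1.53 with Zic1GR (0.00325) and 1.67 with the combination (0.00194). This probe set too ends in s_at.

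For tjp1.S (Xl2.50099.1.S1_at), a copy of ZO-1, the values were 3.12, 3.34, 5.49, 4.26 and 5.75 with Pax3GR, 3.46, 3.17, 3.08, 2.36 and 3.06 with Zic1GR, 2.06, 2.90, 4.22, 3.58 and 3.34 with the combination and 3.39, 3.40, 4.25, 4.29 and 3.14 with GR. They reached background on 6 arrays, 3 with Pax3GR, 1 with the combination and 2 with GR, and the groups overlapped. No comparison with GR was called (adjusted p = 0.246, 0.261 and 0.445 with Pax3GR, Zic1GR and the combination).

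The claudin 6 genes, which in mammals belong to early embryonic epithelia, lie side by side as cldn6.2 and cldn6.1 on both subgenomes. The long copy cldn6.1.L (Xl2.23306.1.S1_at) had 12.11, 12.48, 13.03, 12.95 and 12.77 with Pax3GR, 12.76, 12.80, 12.81, 12.74 and 12.38 with Zic1GR, 12.90, 12.77, 12.95, 13.28 and 13.17 with the combination and 11.63, 11.16, 11.79, 11.28 and 11.06 with GR. All 15 injected explants lay above all GR explants. It rose by 1.28 with Pax3GR (SE 0.18, adjusted p = 1.39e-05), 1.31 with Zic1GR (1.55e-05) and 1.63 with the combination (1.29e-06). Its short copy cldn6.1.S (Xl2.4725.1.S1_at) had 10.005, 12.59, 12.20, 13.15 and 12.54 with Pax3GR, 12.95, 12.99, 13.41, 12.95 and 12.56 with Zic1GR, 12.14, 13.14, 11.73, 13.30 and 12.52 with the combination and 11.61, 11.68, 11.69, 12.51 and 12.61 with GR. Here Pax3GR replicate 1 was the lowest explant of all and the groups overlapped. No comparison passed (adjusted p = 0.904 with Pax3GR, 0.0893 with Zic1GR and 0.344 with the combination), and the Zic1GR value was 0.0128 without Pax3GR replicate 1, in a range of 0.0128 to 0.166.

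The neighbour cldn6.2.L (Xl2.21063.2.S1_a_at) had 13.32, 13.01, 13.22, 13.16 and 12.93 with Pax3GR, 13.02, 12.96, 13.24, 12.80 and 12.46 with Zic1GR, 13.37, 13.35, 13.03, 12.88 and 13.16 with the combination and 12.24, 12.31, 12.63, 12.65 and 12.65 with GR. Pax3GR and combination explants lay above all GR explants, and Zic1GR replicate 5 lay within GR. It rose by 0.63 with Pax3GR (adjusted p = 0.00147), 0.66 with the combination (0.0014) and 0.40 with Zic1GR (0.0289, range 0.0045 to 0.0853, not called without Zic1GR replicate 1, 2 or 3 or GR replicate 1 or 2). The short copy cldn6.2.S (Xl2.12099.1.S1_at) had 13.22, 13.68, 13.75, 13.92 and 13.69 with Pax3GR, 13.71, 13.78, 14.07, 13.79 and 13.68 with Zic1GR, 13.48, 13.77, 13.55, 14.12 and 13.45 with the combination and 13.29, 13.27, 13.61, 13.44 and 13.31 with GR. Zic1GR explants lay just above all GR explants, and the other groups overlapped GR. It rose by 0.42 with Zic1GR (0.0218, or 0.0609 without Zic1GR replicate 3, in a range of 0.01 to 0.0609). It differed by 0.27 with Pax3GR (0.133, or 0.0252 without Pax3GR replicate 1, in a range of 0.0252 to 0.293) and by 0.29 with the combination (0.113).

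The other tight junction genes were claudins 4, 7 and 12 and occludin. Claudin 4, cldn4.L (Xl2.53796.1.S2_at), had 14.42, 14.41, 14.34, 14.36 and 14.19 with Pax3GR, 14.40, 14.46, 14.52, 14.29 and 14.41 with Zic1GR, 14.54, 14.51, 14.29, 14.27 and 14.54 with the combination and 14.65, 14.67, 14.68, 14.65 and 14.58 with GR. The injected explants were all below all GR explants, by small margins. It fell by 0.30 with Pax3GR (adjusted p = 0.00502), by 0.23 with Zic1GR (0.0265, range 0.0222 to 0.0716, not called without Zic1GR replicate 1 or 4 or GR replicate 2) and by 0.22 with the combination (0.0389, range 0.0305 to 0.104, called in 14 of 20 fits, not without combination replicate 3 or 4 or GR replicate 1, 2, 3 or 4). These values lie near the top of the scale, and the dimmer probe set Xl2.53796.1.S1_at fell further, by 1.37 (0.00124), 1.01 (0.0112) and 1.24 (0.00344) with Pax3GR, Zic1GR and the combination. The other one, Xl2.53796.2.A1_at, fell by 0.46 with Pax3GR (0.0174) and did not pass with Zic1GR (0.0935) or the combination (0.0576).

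Claudin 7, cldn7.L (Xl2.21357.1.S1_a_at), had 13.71, 13.82, 13.89, 14.06 and 14.003 with Pax3GR, 13.70, 13.74, 14.02, 13.63 and 13.93 with Zic1GR, 13.80, 13.76, 13.26, 13.45 and 13.82 with the combination and 14.08, 14.19, 14.11, 14.17 and 14.11 with GR. Again all injected explants lay below all GR explants. It fell by 0.51 with the combination (0.00172) and by 0.33 with Zic1GR (0.0254, range 0.0124 to 0.069, not called without Zic1GR replicate 1, 2 or 4 or GR replicate 2), and differed by -0.24 with Pax3GR (0.0997). The other probe sets fell with Zic1GR and the combination too but parted with Pax3GR, where Xl2.21357.1.S1_at fell by 0.38 (0.000623) and Xl2.21357.2.S1_at differed by 0.24 (0.164). In Xl2.21357.2.S1_at, Pax3GR was also higher than Zic1GR by 0.82 (0.000191) and the combination lower than Pax3GR by 0.59 (0.0114), which the brightest probe set did not call.

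Occludin, ocln.S (Xl2.16780.1.S1_at), a membrane protein of the junction strand, had 13.18, 13.28, 12.78, 12.58 and 12.65 with Pax3GR, 12.35, 12.52, 12.83, 12.38 and 12.91 with Zic1GR, 12.96, 12.82, 12.31, 11.95 and 12.52 with the combination and 13.50, 13.03, 13.10, 12.88 and 12.98 with GR. All groups overlapped GR. It fell by 0.58 with the combination (0.0216, range 0.00945 to 0.0696, not called without combination replicate 4 or GR replicate 1) and by 0.50 with Zic1GR (0.0414, called in 13 of 20 fits without 1 array, 0.0256 to 0.112), and differed by -0.20 with Pax3GR (0.414).

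Claudin 12, cldn12.S (Xl2.50132.1.S1_at), had 8.16, 8.56, 8.23, 8.11 and 7.23 with Pax3GR, 8.03, 8.20, 8.12, 8.04 and 7.62 with Zic1GR, 8.21, 8.32, 7.25, 8.06 and 7.54 with the combination and 7.11, 7.54, 7.10, 7.54 and 7.88 with GR. Most injected explants lay above GR, with Pax3GR replicate 5, Zic1GR replicate 5 and combination replicates 3 and 5 inside the GR range. It rose by 0.62 with Pax3GR (adjusted p = 0.0407, called in 12 of 20 fits without 1 array, 0.00488 to 0.113), and not without the least correlated array of each group (0.145). It differed by 0.57 with Zic1GR (0.0594, called in 4 of 20 such fits, 0.0292 to 0.137, those without Pax3GR replicate 5, Zic1GR replicate 5, combination replicate 3 or GR replicate 5) and by 0.44 with the combination (0.15).

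**Figure D4:**
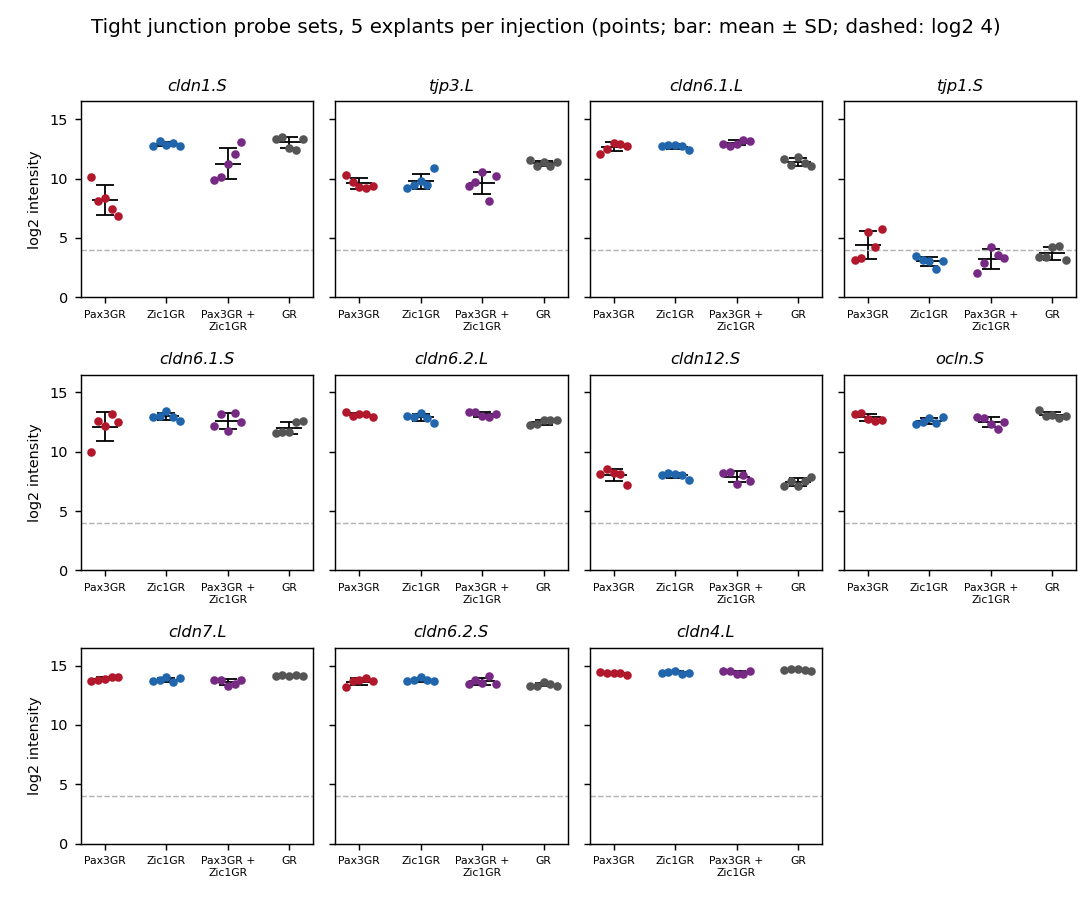
The log2 intensity (vertical axis) of each of the 11 tight junction genes is shown for every explant (points) in Pax3GR, Zic1GR, combination and GR groups (left to right), with the mean ± SD as a bar and log2 4 as a dashed line. In cldn1.S the Pax3GR points lie between 6.81 and 10.15 and the GR points between 12.44 and 13.51, and in cldn6.1.L all injected points lie above the GR points.

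The genes that share only the spelling had their own pattern. The gene krtcap2.L, which encodes a subunit of the oligosaccharyltransferase of the endoplasmic reticulum, averaged 11.07 ± 0.25 with Pax3GR, 11.47 ± 0.40 with Zic1GR, 11.73 ± 0.39 with the combination and 12.40 ± 0.094 with GR. It fell by 1.33 (limma adjusted p = 2.45e-05), 0.93 (0.000803) and 0.67 (0.00948) in that order. The claudin domain gene cldnd1.L averaged 11.59 ± 0.39, 11.24 ± 0.18, 11.93 ± 0.28 and 11.11 ± 0.13 in the same order. It rose by 0.81 with the combination (0.000995) and by 0.48 with Pax3GR (0.0266, range 0.00084 to 0.0713, not called without Pax3GR replicate 3, 4 or 5 or GR replicate 1 or 2). The gene krtcap3.L averaged 11.50 ± 0.30, 11.23 ± 0.24, 11.13 ± 0.35 and 11.50 ± 0.092 and was called in none of the 3 comparisons (0.987, 0.202 and 0.0863), or, without combination replicate 2, in the last (0.0221 to 0.215 over 20 fits).

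The combination was set against each single factor to ask what the second factor adds. Against Pax3GR, 3 of the 39 genes were higher and none lower, all of them at log2 4 or more on every array, where 10.3% of all probe sets were called, 4.28% higher and 5.98% lower. The 3 were cldn1.S by 3.08 (SE 0.58, limma adjusted p = 0.00217), pkp2.L by 1.16 (0.0303, called in 14 of 20 fits without 1 array, 0.0132 to 0.0947) and krtcap2.L by 0.65 (0.0405, called in 10 of 20, 0.013 to 0.115). The fits that lost pkp2.L left out Pax3GR replicate 3, 4 or 5 or combination replicate 1, 2 or 5. For cldn1.S the dimmer probe set gave -0.36 (adjusted p = 0.807). The count depended on single explants: it was 10 without Pax3GR replicate 1, and 1 without Pax3GR replicate 3, 4 or 5 or combination replicate 5. Without the least correlated array of each group it was 16 of 38, 15 of them higher, among them the 3, and with array weights it was 16. For both of these fits the share of all probe sets called is not given. In a fit of these 2 groups alone limma called 0, with 6 genes at an unadjusted p under 0.05. That fit called 787 of the 20519 probe sets.

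Against Zic1GR the combination had 2 genes higher and 2 lower, again all above background on every array, beside 13.3% of all probe sets called, 7.05% higher and 6.25% lower. The genes higher were cldnd1.L by 0.69 (adjusted p = 0.0112) and jup.L by 0.45 (0.0122). Lower were krt18.1.L, by 0.91 (0.00401), with all combination explants below all Zic1GR explants, and krt19.L, by 1.14 (0.0448, called in 6 of 20 fits without 1 array, 0.00665 to 0.107). Without the least correlated array of each group the count was 8 of 38, among them these 4, with the share of all probe sets again not given.

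Pax3GR and Zic1GR were also compared directly. Of the 39 genes 3 were higher with Pax3GR and 8 lower, beside 34.3% of all probe sets called, 17.3% higher and 17% lower, and over the 35 genes above background on all arrays the counts were 2 and 8. In all 11 were called, 20 with array weights and 7 without Pax3GR replicate 4. The genes higher were pkp3.S by 1.06 (adjusted p = 0.0129), jup.L by 0.72 (9.25e-05) and tjp1.S. For tjp1.S, at least 1.31-fold higher, 3 of 5 Pax3GR and no Zic1GR explants reached background. Its call was kept in 13 of 20 fits without 1 array and lost with values below log2 4 set to 4. Because tjp1.S needed its Pax3GR values to pass the filter, its difference is given as a description with no test. Among the lower, cldn1.S stood out at -4.71 (6.61e-06), with no overlap between the groups, but its dimmer probe set gave 4.86 in the other direction (3.38e-05).

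The other genes lower with Pax3GR than with Zic1GR were keratins, desmoplakin and a plakophilin. They were krt19.L at -1.48 (limma adjusted p = 0.00416), pkp2.L at -1.45 (0.00235), krt18.1.L at -1.22 (0.000116), krt18.1.S at -0.77 (0.0484, called in 4 of 20 fits without 1 array, 0.00931 to 0.116), dsp.S at -0.69 (0.00717), dsp.L (0.0496, called in 5 of 20, 0.0211 to 0.119) and krt8.1.S (0.0175, or 0.0505 without Pax3GR replicate 4, in a range of 0.00142 to 0.0505). The explants of these groups did not overlap for pkp2.L, krt18.1.L and cldn1.S among the lower genes and for jup.L among the higher, beside 11.2% and 12.1% of all probe sets.

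Non-additivity asks whether the combination's difference from GR equals the sum of those of Pax3GR and Zic1GR on the log2 scale. It was called for 21 of the 39 genes, with 18 above the sum and 3 below it, while 36.6% of all probe sets were called, 17% above and 19.6% below. Over the 35 genes above background on all arrays the counts were 15 and 3. For krt12.2.L, krt17.L and krt18.3.L the level expected from the sum was below log2 4, which the arrays could not have shown, and for the other 18 it lay within the range of the data. Among those furthest above the sum within that range, periplakin was expected at 6.79 and measured at 11.35, a difference of 4.56 (SE 1.12, adjusted p = 0.00483). The gene cldn1.S was expected at 8.03 and measured at 11.26, 3.23 above (0.00584), and krt12.4.S was expected at 11.78 and measured at 14.26, 2.47 above (0.0241).

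The 3 genes below the sum had risen in both single groups. Expected and measured levels were 15.23 and 13.07 for krt18.1.S (difference -2.15, adjusted p = 0.000859), 13.33 and 11.67 for krt19.S (-1.66, 0.00873) and 13.98 and 13.01 for cldn6.1.L (-0.97, 0.0072). By family 8 of 14 keratins, 6 of 11 desmosome and plakin genes and 3 of 11 tight junction genes lay above the sum, beside 17% of all probe sets. Among the 8 keratins are krt12.2.L, krt17.L and krt18.3.L, for which a level above the sum was fixed because the arrays could not show one so low. Over the 11 keratins above background on all arrays 5 lay above the sum. The calls for krt7.L, tjp3.L, pkp2.L and cldn4.L were kept in 18 of 20, 10 of 20, 8 of 20 and 7 of 20 fits without 1 array. Other probe sets did not all share the calls. For krt7.L, Xl2.1642.1.S1_at lay below the sum (-0.49, 0.00584) and the other 3 above it. The other probe set of tjp3.L (0.0581), Xl2.5100.1.A1_a_at and Xl2.5100.1.A1_at of krt19.S (0.32 and 0.597) and 1 of the 2 others of cldn4.L (0.147) were not called. For krt19.S, Xl2.5100.2.S1_at lay below the sum like the first, at 9.97 with the combination. Its means were 10.97 with Pax3GR, 10.91 with Zic1GR and 9.80 with GR. The same held for Xl2.5100.2.S1_x_at, at 10.90 beside 11.87, 11.77 and 10.875. The single differences and the sum share the GR arrays.

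For 10 genes both copies were among the 39, and the log2 difference between the long and the short copy within each explant was compared between each injected group and GR by an exact two-sided permutation test over explants. There were 30 such tests, chosen after the values had been seen, and with 5 against 5 explants the smallest p they can give is 0.00794. After Benjamini-Hochberg adjustment 13 passed 0.05, 4 with Pax3GR, 6 with Zic1GR and 3 with the combination. The signals of the copies of krt18.1, krt19 and dsp shifted against each other in all 3 injected groups.

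For krt18.1 the long copy's signal exceeded the short copy's by 0.80 with Pax3GR, 1.25 with Zic1GR and 0.58 with the combination, against 3.52 with GR. The shift was -2.72, -2.27 and -2.94 (adjusted p = 0.0238 for each, exact permutation test), and no injected explant overlapped GR. For krt19 the difference between the copies was -1.31, 0.14 and -0.28 in the injected groups, against 2.54 with GR, shifts of -3.86 (0.0238), -2.40 (0.0366) and -2.83 (0.0366). Its short copy krt19.S (Xl2.5100.3.S1_x_at), with 12.36 ± 0.19, 12.38 ± 0.45 and 11.67 ± 0.72 in Pax3GR, Zic1GR and combination explants and 11.41 ± 0.57 with GR, had risen by 0.95 with Pax3GR (limma adjusted p = 0.0193, range 0.0071 to 0.0564, not called without GR replicate 1 or 4) and 0.97 with Zic1GR (0.017), while the long copy fell. Of the other probe sets of krt19.S, Xl2.5100.1.A1_a_at and Xl2.5100.1.A1_at gave 0.63 (0.298) and -0.18 (0.939) with Pax3GR and 0.30 (0.631) and 1.82 (0.362) with Zic1GR, none called. Another, Xl2.5100.2.S1_at, was higher like the first, at 10.97 with Pax3GR and 10.91 with Zic1GR, against 9.80 with GR. So was Xl2.5100.2.S1_x_at, at 11.87 and 11.77, against 10.875. The probe sets that stood for krt19.L and krt19.S both carry a mark of shared or cross-hybridising probes.

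For desmoplakin the copies' difference was -0.70, -0.70 and -0.68 in Pax3GR, Zic1GR and combination explants, against 0.23 with GR, shifts of -0.93, -0.94 and -0.91 (adjusted p = 0.0238 for each, exact permutation test). The other shifts that passed were in 1 group each. With Pax3GR jup shifted by 0.63 (0.0238), and with Zic1GR pkp3 shifted by 1.12 (0.0238), krt12.4 by 0.27 (0.0366) and krt70 by -0.45 (0.0238). For cldn6.1, cldn6.2 and pkp4 none passed, with adjusted p between 0.085 and 0.889. A probe set's brightness differs from another's by its sequence, so the level of the difference has no meaning of its own. Its change between groups can depend on the probe sets too. With Pax3GR the brightest probe set of cldn4.L fell by 0.30 and Xl2.53796.1.S1_at, of the same copy, by 1.37. Both copies of krt12.4 and krt70 also lay near the top of the scale with GR. How far probe sets or the top of the scale made these shifts was not tested.

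Over the 39 genes as a whole, explants of each injection were further apart than GR explants. The median SD over the 39 genes was 0.39 with Pax3GR, 0.28 with Zic1GR, 0.39 with the combination and 0.13 with GR, beside 0.38, 0.34, 0.41 and 0.26 over all probe sets. Tight junction genes were an exception with Zic1GR, at 0.22 beside 0.24 with GR. The means over keratins and over desmosome genes were both highest in Pax3GR replicate 1 and lowest in combination replicate 4 within their groups. Averaged over the 14 keratins, Pax3GR explants lay at 11.98, 11.64, 10.79, 10.79 and 10.65 and GR explants between 12.56 and 13.05. Pax3GR replicate 1 was the highest of its group for 12 of 14 keratins, 8 of 11 desmosome and plakin genes and 4 of 11 tight junction genes, as it was for 29.3% of all probe sets. Combination replicate 4 was the lowest of its group for 12 of 14 keratins, 8 of 11 desmosome and plakin genes and 4 of 11 tight junction genes, and for 19.9% of all probe sets. These are the arrays that correlated least with their groups. Zic1GR replicate 5 was the highest of its group for 12 of the 36 genes of the 3 families and the lowest for 10, near its shares of 31.7% and 34.2% over all probe sets.

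Markers of the cell types that a cap can hold also differed between the groups. Of all probe sets 27.3%, 28.6% and 24.6% rose and 23%, 22.8% and 20.3% fell with Pax3GR, Zic1GR and the combination. The counts below are to be read beside these shares. Averaged over 12 gene copies of multiciliated cells, Pax3GR explants lay at 10.35, 7.02, 3.76, 3.92 and 3.80, highest in replicates 1 and 2 as the keratins were, against 10.77 to 11.94 with GR. That list ran between 4.98 and 8.90 with Zic1GR and between 4.36 and 8.97 with the combination, lowest in replicate 4. All 12 copies fell with Pax3GR, 10 with Zic1GR and 8 with the combination. Of 11 copies of ionocyte markers 9, 11 and 9 fell in that order, and their mean lay at 5.19 to 7.27, 4.31 to 7.37 and 4.56 to 6.50, against 10.36 to 11.38 with GR. The mucus-secreting cell list lay at 6.47 to 8.40, 7.86 to 9.22 and 5.15 to 8.21, against 10.65 to 11.60 with GR.

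The epidermis list of 17 copies had 1 rise and 12 falls with Pax3GR, 4 and 3 with Zic1GR and 4 and 7 with the combination, with means of 9.29 to 10.89, 10.65 to 11.42 and 10.03 to 11.70, against 11.79 to 12.30 with GR. Its counts with Zic1GR lay below the shares of all probe sets. Neural crest markers rose for 9, 9 and 11 of 12 copies and fell for 1, 1 and 0, with means of 10.16 to 11.06, 8.83 to 10.53 and 12.00 to 12.75, against 6.23 to 7.29 with GR. Neural plate markers rose for 13, 13 and 7 of 17 and fell for 0, 0 and 3, with means of 9.51 to 10.37, 9.38 to 9.99 and 7.43 to 8.58, against 6.86 to 7.02 with GR. Hatching gland markers rose for 4, 3 and 4 of 5 copies and fell for 0, 1 and 0, with means of 13.52 to 13.85, 6.88 to 8.75 and 13.03 to 13.55, against 4.55 to 4.91 with GR. The hatching gland list holds pax3.S, a copy of an injected gene, which was higher by 10.91 with Pax3GR and 10.56 with the combination. How far injected message adds to the rises and means of that list was not tested. Cement gland markers rose for 0, 1 and 0 of 6 copies and fell for 4, 0 and 3, with means of 7.20 to 8.80, 12.33 to 12.72 and 6.83 to 9.82, against 10.78 to 11.08 with GR. The part of these cell types in the differences of the keratin, desmosome and tight junction genes was not tested.

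**Figure D5:**
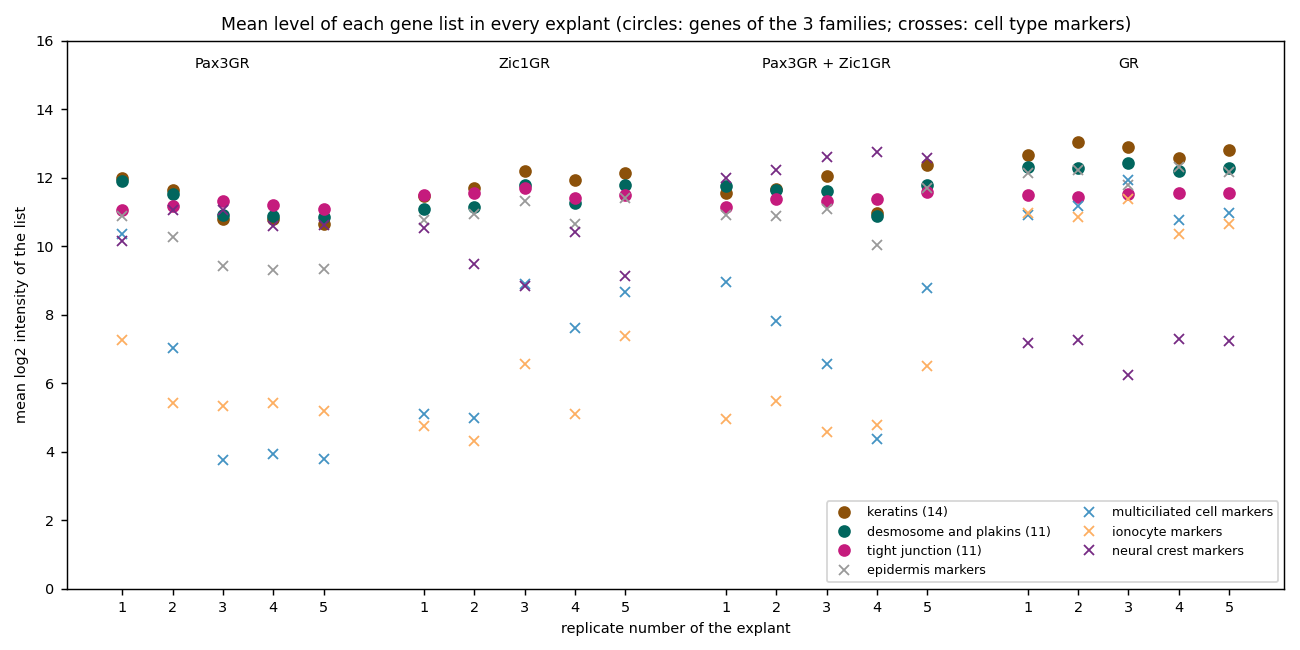
Mean log2 intensity (vertical axis) of each list is shown for every explant, by replicate number (horizontal axis) within Pax3GR, Zic1GR, combination and GR groups (left to right), with circles for the 3 gene families and crosses for markers of epidermis, multiciliated cells, ionocytes and neural crest. Pax3GR replicate 1 is high and combination replicate 4 low for keratins, desmosome genes and multiciliated cell markers, while the tight junction mean stays between 11.07 and 11.70 in all 20 explants.

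Other genes of the same structures were counted from lists chosen for their roles. They are to be read against the shares of all probe sets called and the medians of all probe sets, given with the first counts. The shares were 27.3%, 28.6% and 24.6% higher and 23%, 22.8% and 20.3% lower with Pax3GR, Zic1GR and the combination. Of 7 copies of desmosome partners, hemidesmosome and basement membrane genes 1 rose and 4 fell with Pax3GR, 0 and 4 with Zic1GR, and 1 and 5 with the combination, with median differences of -0.78, -0.38 and -1.65. Kindlin-1, which couples integrins to actin in basal epidermis, had 2 copies here, and fermt1.S averaged 2.26 ± 0.061 with Pax3GR, 2.64 ± 0.87 with Zic1GR and 2.28 ± 0.03 with the combination, against 10.06 ± 0.69 with GR. The means of the 3 injected groups were below background. Like krt17.L, fermt1.S passed the filter through its GR values, so its place among the falls was fixed and no test is given. Perp, a membrane protein of the desmosome, fell in perp.S by 0.78 with Pax3GR (limma adjusted p = 0.000169), 0.38 with Zic1GR (0.0298) and 0.48 with the combination (0.0102). Dystonin, a plakin that ties filaments to hemidesmosomes, rose in dst.L with Pax3GR, at 8.96 ± 0.60, against 3.15 ± 0.33 with GR (2.75e-08), and by 2.44 with the combination (0.000565), with a difference of 0.25 with Zic1GR (0.687).

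Of 7 copies of envelope, uroplakin and transglutaminase genes 1 rose and 5 fell with Pax3GR, 0 and 4 with Zic1GR and 1 and 3 with the combination, with medians of -0.70, -1.04 and -0.59. The uroplakin upk1b.S, a plaque protein of apical membranes, fell by 1.07 (0.000705), 1.13 (0.000533) and 0.73 (0.0135) in that order, and upk1b.L by 2.55 (0.00238), 1.94 (0.0154) and 1.78 (0.0268). The cholesterol sulfotransferase sult2b1.S rose by 4.3 with Pax3GR (4.82e-06) and 1.45 with the combination (0.0376), and differed by -0.42 with Zic1GR (0.54).

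Among 17 copies of tight junction partners and polarity genes 5 rose and 4 fell with Pax3GR, 5 and 8 with Zic1GR and 6 and 7 with the combination, with medians of 0.15, -0.12 and -0.21. The counts with Pax3GR were near the 27.3% higher and 23% lower of all probe sets. Cingulin, which links the junction to the cytoskeleton, fell in cgn.L by 1.56 with Pax3GR (1.31e-05), 1.13 with Zic1GR (0.000405) and 0.98 with the combination (0.0014). The tricellular junction gene ildr1.L fell by 2.27, 1.84 and 1.79 (adjusted p = 3.18e-05, 0.000294 and 0.000423) and the polarity scaffold pals1.L by 2.09, 1.79 and 1.96 (1.28e-05, 7.92e-05 and 3.38e-05) with Pax3GR, Zic1GR and the combination. The polarity gene pard6g.S rose by 2.17, 2.32 and 2.40 in the same order (1.56e-05, 1.06e-05 and 7.34e-06). The bright junction adhesion molecule f11r.L fell by 0.33 with Zic1GR (0.00208) and 0.21 with the combination (0.0383), with a difference of 0.077 with Pax3GR (0.435).

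Of 17 copies of adherens junction genes 6 rose and 5 fell with Pax3GR, 5 and 4 with Zic1GR and 5 and 2 with the combination, with medians of 0.17, 0.0057 and 0.037. The counts with Zic1GR were near the 28.6% higher and 22.8% lower of all probe sets. N-cadherin, cdh2.L, averaged 13.38 ± 0.18 with Pax3GR, 11.24 ± 0.53 with Zic1GR and 12.98 ± 0.25 with the combination, against 9.01 ± 0.52 with GR, rises of 4.38 (1.84e-10), 2.23 (1.62e-06) and 3.98 (7.81e-10). C-cadherin, cdh3.L, the main cadherin of the early frog embryo, rose by 0.84 with Pax3GR (3.43e-07), 0.34 with Zic1GR (0.00318) and 0.63 with the combination (1.41e-05). The actin-associated gene pdlim1.L fell by 5.11, 4.61 and 4.50 (3.49e-10, 2.04e-09 and 2.41e-09). Beta-catenin, ctnnb1.L, rose by 0.23 with Pax3GR (0.0361) and differed by 0.15 with Zic1GR (0.152) and 0.15 with the combination (0.178).

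Intermediate filaments other than keratins had no called falls: of 11 copies 5 rose with Pax3GR, 3 with Zic1GR and 3 with the combination, with medians of 0.47, 0.11 and 0.30. Of all probe sets 27.3%, 28.6% and 24.6% rose and 23%, 22.8% and 20.3% fell. The rises with Zic1GR and the combination were thus near the shares of all probe sets. Vimentin, the filament of mesenchymal and neural cells, averaged in vim.S 12.14 ± 0.42, 8.27 ± 0.45 and 11.25 ± 1.02 in these groups, against 5.64 ± 1.30 with GR (limma adjusted p = 2.5e-08, 0.000635 and 2.18e-07). Nestin, a filament of neural precursors, stood in nes.S at 9.95 ± 1.12 with Pax3GR, against 2.45 ± 0.032 with GR, and was not called with Zic1GR (0.981) or the combination (0.203). It passed the filter through its Pax3GR values, so the rise is given as a description with no test. The lamin lmnb3.S rose by 1.94, 1.42 and 1.57 with Pax3GR, Zic1GR and the combination (1.95e-06, 7.26e-05 and 2.85e-05), while the bright lmnb1.L did not pass (0.0616, 0.147 and 0.317).

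Among 22 copies of genes that regulate epithelium 5 rose and 14 fell with Pax3GR, 4 and 7 with Zic1GR and 5 and 11 with the combination, with medians of -1.95, -0.84 and -1.17. The epidermal regulator tp63.S averaged 3.20 ± 0.41 with Pax3GR and 3.85 ± 0.73 with Zic1GR, against 9.30 ± 1.14 with GR (2.77e-07 and 1.58e-06), and fell to 7.45 ± 1.41 with the combination (0.0191). Its long copy tp63.L fell by 3.88 with Pax3GR (limma adjusted p = 0.000584) and by 3.86 with Zic1GR (0.000718). With the combination tp63.L differed by -0.038 and was not called, so the copies parted there. The ligand gene bmp4.S, which promotes epidermis, fell by 2.21 with Pax3GR (3.92e-07) and 2.13 with the combination (8.38e-07), and differed by -0.20 with Zic1GR (0.485). The factor gata3.S fell by 5.09 (9.48e-06) and 5.35 (7.56e-06) in those 2 groups and differed by -1.24 with Zic1GR (0.14). The gene grhl3.S, a regulator of barrier genes, fell by 2.69 with Pax3GR (0.00312) and differed by -1.28 with Zic1GR (0.126) and -1.28 with the combination (0.135). The border factor msx1.L rose by 0.96 with Pax3GR (3.12e-05) and 1.13 with the combination (7.68e-06) and fell by 0.87 with Zic1GR (0.000108).

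The 25 symbols that did not pass the filter were 15 keratins, 9 tight junction genes and the desmosomal cadherin dsc3.S. Of the 25, 20 reached log2 4 on no array, dsc3.S with a highest value of 3.89, and 5 did on 1 to 3 arrays. These 5 were krt17.S, krt12.2.S, cldn5.L, cldn12.L and cldn19.L, with 6.60 in krt12.2.S as the highest value on any array. The level of the 20 is therefore not measured here.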

How the data were processed

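The 20 arrays carried 32635 probe sets, of which 96 control probe sets were left out. The deposited values are log2 intensities, 1 per probe set and array, and per the submitters' processing notes GCRMA and Partek were used. The arrays' medians lay between 6.10 and 6.30, and the number of arrays limits the precision. Symbols came from the platform annotation, with 15495 probe sets holding 1 symbol, 279 several and 16765 none, and 15384 symbols were checked by gene ID against RefSeq's table for Xenopus_laevis_v10.1, which was used for names and neighbours alone.

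The 20519 probe sets at log2 4 or more on at least 5 arrays entered 1 limma model (version 3.58.1, R 4.3.3) of all 20 arrays, with a mean for each group. There were 7 comparisons, each with Benjamini-Hochberg adjustment over all probe sets and a threshold of 0.05. The fit was tested on simulated data. For a group entirely below log2 4 the fold change is a bound, taken against a floor of log2 4, and a pair of groups that were both below it has no fold change. Figures and summaries used Python 3.11.15 with pandas 2.3.3 and matplotlib 3.10.9.

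The genes and lists were chosen with earlier results of these data known. Given explant by explant are, per family, the 8 genes with the largest range of group means and the 3 with the smallest among those with a mean of at least log2 10. Each comparison names the called genes with the 6 largest differences in each direction, and other genes appear in counts or as means. The permutation tests on homeologs were chosen after the values had been seen. Alternatives concerned the filter, low values, normalization, variance model, array weights, groups in the fit, replicate numbers as a block, probe set choice, thresholds and left-out arrays. Leaving out the least correlated arrays together and counting only genes above background on all arrays were added after seeing the data. Sequences were not analysed here.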

Additional observations from a re-analysis of the deposited data

Results flagged for a closer look

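In 13 of 156 groups of 5 explants, 1 explant lay apart from the other 4 by more than 0.71 of the group's range, the critical value of Dixon's test for 5 values, and chance flags about 1 in 20 groups. Of the 13, 2 were Pax3GR groups, 3 Zic1GR, 4 combination and 4 GR. Combination replicate 4 was low for evpl.L at 10.33 beside 11.90 to 11.95, for ppl.L at 9.25 beside 11.63 to 12.16, for krt12.5.S at 13.73 beside 14.54 to 14.63 and for krt7.L at 14.31 beside 14.58 to 14.68. Pax3GR replicate 1 was high for pkp3.L at 10.88 beside 9.40 to 9.74 and for krt19.L at 11.96 beside 10.65 to 10.94. GR replicate 3 was low for krt19.L at 12.42 beside 14.17 to 14.63 and for krt18.3.L at 11.95 beside 12.43 to 12.60, and high for ppl.L at 13.47 beside 12.94 to 13.00 and for pkp4.S at 9.22 beside 8.02 to 8.26. Zic1GR replicate 5 was high for krt12.2.L at 4.43 and low for cldn6.1.L at 12.38, and Zic1GR replicate 3 was high for krt17.L at 2.96, below background.

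In 2 genes all Pax3GR explants differed from the GR mean one way and all Zic1GR explants the other way, with a called difference between these groups. For jup.L the difference was 0.72 (limma adjusted p = 9.25e-05), from 0.14 with Pax3GR and -0.58 with Zic1GR against GR. For krt18.1.L it was -1.22 (0.000116), from -0.80 with Pax3GR and 0.42 with Zic1GR against GR.

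Among the symbols that did not pass the filter, 2 had a signal above background in Pax3GR explants and none in GR explants. The gene cldn19.L reached 4.56 in Pax3GR replicate 4 and log2 4 in 3 Pax3GR explants, with 2.23 as its highest GR value. The gene cldn5.L reached 6.17 in Pax3GR replicate 5 and log2 4 in 2 Pax3GR explants, with 2.15 as its highest GR value.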

How the results depend on the processing

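Called genes in the 7 comparisons were counted again under each alternative, and no called difference that was still called changed sign under any of them, except where the probe set was exchanged. Requiring a 2-fold difference as well left 15 genes with Pax3GR against GR, 11 with Zic1GR against GR, 9 with the combination against GR, 1 with the combination against Zic1GR and 6 with Pax3GR against Zic1GR. An adjusted p under 0.01 left 13 with Zic1GR against GR, 1 with the combination against Pax3GR, 1 with the combination against Zic1GR, 6 with Pax3GR against Zic1GR and 9 for non-additivity. Array weights gave 16 with the combination against Pax3GR and 20 with Pax3GR against Zic1GR. The groups of a comparison alone gave 0 with the combination against Pax3GR by limma, with 6 at an unadjusted p under 0.05, where 787 of 20519 probe sets were called. This fit was not run for non-additivity, and for the other alternatives the shares of all probe sets called are not given. Without the least correlated array of each group the combination had 16 against Pax3GR and 8 against Zic1GR. Leaving out 1 array at a time gave 22 to 29, 16 to 23 and 14 to 21 genes with Pax3GR, Zic1GR and the combination against GR, 1 to 10 and 3 to 5 with the combination against Pax3GR and Zic1GR, 7 to 15 with Pax3GR against Zic1GR and 17 to 26 for non-additivity. The cause of these moves was not tested, beyond the fewer genes that a stricter threshold leaves by construction. All other counts lay within 1.5 times those reported.

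The values showed no clear pairing of explants by replicate number, and the labels do not say whether a number marks a clutch. The mean correlation of same-numbered explants' deviations was 0.042, with 8 of 30 pairs over 0.1. For different numbers it was -0.0097, with 30 of 120 over 0.1. Of 20 arrays, 6 correlated best with an array of their own number. With the replicate number as a block 27, 21 and 17 genes were called with Pax3GR, Zic1GR and the combination against GR, 2 and 4 with the combination against Pax3GR and Zic1GR, 11 with Pax3GR against Zic1GR and 20 for non-additivity.

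Of the named differences, 649 of the values under settings other than a left-out array kept direction and side of the threshold, 24 lost the call and 4 reversed. The 4 were all cldn1.S, read from its second brightest probe set, with 1.30 for Pax3GR and 0.94 for the combination against GR, -0.36 for the combination against Pax3GR and 4.86 for Pax3GR against Zic1GR. Only 11 of the 39 genes had several probe sets that passed. For the others that setting repeated the same probe set, so some of the 649 values could not have changed. With 1 array left out, 1064 kept their call and 76 lost it. Signals near background and near the top of the scale limit krt17.L, krt12.2.L, krt18.3.L and tjp1.S at one end and the epidermal keratins at the other.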
